A study of Caenorhabditis elegans with 2 samples.

Results

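The snoRNA genes of Caenorhabditis elegans were examined for peaks of the tagged protein Y75B8A.6. They were all 346 genes of the biotype snoRNA on the nuclear chromosomes in the Ensembl annotation of WBcel235, of 46890 nuclear genes in all. A gene was called bound when the summit of a peak in the larger thresholded list of the series, the optimal list of 933 peaks, lay within 500 bp of its annotated start. Which genes belong follows from the annotation alone, and a bound gene is a statement on position only, not on regulation. Peak lists from chromatin immunoprecipitation sequencing (ChIP-seq) were available for 2 biological replicates of 1 group. The animals were whole L4 larvae, the last larval stage, collected at 48 h after synchrony of starved L1 larvae from bleached parents. Their strain, RW12275, carried a TY1, EGFP and 3xFLAG tag inserted by CRISPR at Y75B8A.6 on chromosome III, and chromatin sheared to 200 to 800 bp was precipitated with an antibody against the fluorescent protein. An input file was shared by both libraries, whole animals give an average over all tissues, no untagged animals were analysed here, and no second condition was measured.

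Small nucleolar RNAs (snoRNAs) guide the chemical modification of other RNAs, above all ribosomal RNA. Box C/D snoRNAs, named for short sequences near both ends, guide 2′-O-methylation, and box H/ACA snoRNAs, which end shortly after the letters ACA, guide the change of uridine to pseudouridine. In animals many snoRNAs are cut out of the introns of a host gene, often a gene for a ribosomal protein or another factor of translation, and others are transcribed from promoters of their own. In worms some snoRNA genes have such promoters even inside introns. RNA polymerase III, which makes tRNAs, uses promoters with an A box and a B box, which lie within the gene at tRNA genes and can lie upstream of it at other genes, and it stops at a run of T.

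A first view of the bound genes is given by the letters upstream of them. The A box was searched as TGGCNNAG and the B box as GTTCGANNC, or more loosely as GTTCNANNC, where N is any base. Each stretch below runs from 90 bp before the annotated start through the first 10 bases of the gene, 5′ to 3′ on the strand of the gene, and is from the RefSeq sequence of WBcel235 (ce11). Capitals mark the A box word and then the loose B box word. The first 5 are bound genes with both words, shown because the order of the words recurred among bound genes. Their spacing recurred too, except in F55A11.10, where it was wider. The remaining genes have the same words and no summit.
T03F7.8 (chrV:11314168-11314267, plus strand): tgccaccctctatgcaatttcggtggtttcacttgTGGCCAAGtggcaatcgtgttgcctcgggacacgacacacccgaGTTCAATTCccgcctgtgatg
W03C9.9 (chrII:11960808-11960907, plus strand): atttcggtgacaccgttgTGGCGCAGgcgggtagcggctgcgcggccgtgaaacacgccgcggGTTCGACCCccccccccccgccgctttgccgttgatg
Y43F8C.22 (chrV:19643178-19643277, minus strand): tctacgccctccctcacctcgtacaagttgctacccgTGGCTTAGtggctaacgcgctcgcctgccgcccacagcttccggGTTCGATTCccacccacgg
C04G6.12 (chrII:5105222-5105321, minus strand): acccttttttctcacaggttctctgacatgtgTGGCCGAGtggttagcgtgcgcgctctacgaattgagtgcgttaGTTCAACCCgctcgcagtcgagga
F55A11.10 (chrV:11782902-11783001, plus strand): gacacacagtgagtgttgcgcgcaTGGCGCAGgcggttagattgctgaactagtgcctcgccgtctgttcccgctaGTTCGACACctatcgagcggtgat
T24H7.6 (chrII:6248627-6248726, plus strand, not bound): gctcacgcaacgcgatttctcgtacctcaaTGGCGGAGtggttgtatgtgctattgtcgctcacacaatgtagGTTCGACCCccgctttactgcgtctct
Y59E1B.14 (chrX:1891419-1891518, plus strand, not bound): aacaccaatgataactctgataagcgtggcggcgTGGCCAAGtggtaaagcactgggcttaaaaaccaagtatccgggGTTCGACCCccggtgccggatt

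Both kinds of snoRNA occur among the bound genes, as the whole sequences of a pair of them show. W03C9.9, an intergenic gene at chrII:11960898-11960959 on the plus strand, has the letters of box C and box D, in capitals. Y43F8C.22, at chrV:19643050-19643187 on the minus strand in an intron of Y43F8C.7, has the letters ACA, in capitals, shortly before its end.
W03C9.9: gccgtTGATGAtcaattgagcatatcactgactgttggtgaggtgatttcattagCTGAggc
Y43F8C.22: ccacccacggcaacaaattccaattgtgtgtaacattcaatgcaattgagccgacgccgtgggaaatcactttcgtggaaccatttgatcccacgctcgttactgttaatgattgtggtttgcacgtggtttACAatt

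Of the 346 snoRNA genes, 55 were bound, or 15.9% (exact Clopper-Pearson 95% interval 12.2% to 20.2%). Over all nuclear genes the same rule called 1.86%, and over the 46544 genes other than snoRNA genes it called 818, or 1.76%. The summits nearest to the bound genes were 53 different ones, because C51F7.4 and C51F7.3 shared a summit and C27H5.9 and C27H5.10 shared another. Within 100 bp of the start, 44 snoRNA genes (12.7%, 9.39% to 16.7%) had a summit, against 0.932% of all nuclear genes. For tRNA genes, the best known genes of RNA polymerase III, 191 of 612 were bound (31.2%, 27.6% to 35.0%) and 169 had a summit within 100 bp (27.6%). Genes of snRNAs, the RNAs of the spliceosome, were bound in 14 of 129 cases (10.9%, 6.06% to 17.5%). Genes of miRNAs, short RNAs that repress messenger RNAs, were bound in 9 of 261 cases (3.45%, 1.59% to 6.44%), and protein-coding starts in 319 of 19973 (1.60%, 1.43% to 1.78%). The intervals cover counting error alone and treat genes as independent, and the read depth behind the lists is unknown.

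Bound snoRNA genes were found inside introns, between genes and over exons, at shares that differed by less than counting error. A gene counted as intronic when it lay whole within an intron of a protein-coding gene, its host, and as overlapping an exon when any part met an exon of such a gene. Of 169 intronic snoRNA genes, 30 were bound (17.8%, 12.3% to 24.4%), against 18 of 124 intergenic ones (14.5%, 8.84% to 22.0%). The difference, intronic minus intergenic, was 3.24 percentage points with a Newcombe 95% interval of -5.60 to 11.5. Within 100 bp the order turned round, with 20 intronic genes (11.8%) and 17 intergenic genes (13.7%) having a summit. Intronic snoRNA genes on the strand of their host were bound in 23 of 142 cases (16.2%, 10.6% to 23.3%) and those on the opposite strand in 7 of 27 (25.9%, 11.1% to 46.3%). Of 53 snoRNA genes that overlapped an exon, 7 were bound (13.2%, 5.48% to 25.3%), and all of these summits lay within 100 bp. All the intervals of these classes overlapped.

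**Figure D1:**
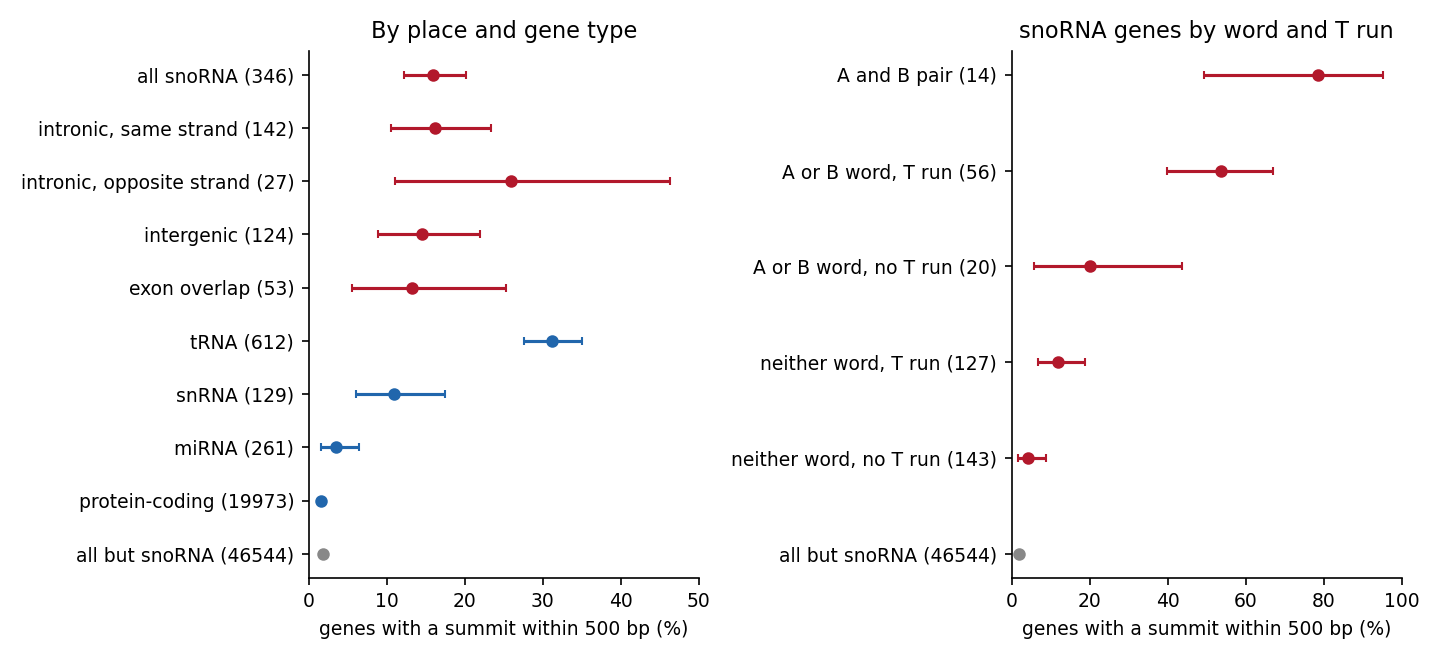
Share of genes with an optimal-list summit within 500 bp of the start, in percent on the horizontal axes; points are shares, bars are exact 95% intervals and the number of genes stands in brackets. On the left, the classes of snoRNA genes (red) lie between 13.2% and 25.9% with overlapping intervals, beside tRNA genes at 31.2% and protein-coding genes at 1.60% (blue) and all genes but snoRNA genes at 1.76% (grey); on the right, snoRNA genes are divided by the promoter words and the T run described in the text, from 78.6% to 4.20%.

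On the chromosomes, the bound share was 12 of 74 snoRNA genes on I (16.2%), 13 of 71 on II (18.3%), 6 of 54 on III (11.1%), 11 of 59 on IV (18.6%) and 12 of 55 on V (21.8%). On X it was 1 of 33 (3.03%, 0.0767% to 15.8%). The bound gene on X was C53B7.8, an intergenic gene with the letters of box H/ACA, at -24 bp.

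Summits lay upstream of snoRNA genes. Along the strand of the gene, the position of the nearest summit relative to the start had a median of -46 bp in the 55 bound snoRNA genes (quartiles -63.5 and -15.5 bp). In 45 of the 55 genes the summit was upstream of the start, in 40 it was 1 to 100 bp upstream, and in 33 it was 20 to 75 bp upstream. At the 191 bound tRNA genes the median was 17 bp downstream of the start (quartiles -3.5 and 41 bp), and 56 summits were upstream. The 14 bound snRNA genes had a median of 22 bp and the 9 bound miRNA genes of -87 bp. By place, the median was -43 bp for intronic, -51 bp for intergenic and -51 bp for exon-overlapping snoRNA genes. With the thresholded list of replicate 1 alone it was -42 bp over 29 genes, and with that of replicate 2 alone it was -42 bp over 37 genes. The deposited lists give summits from fragments of 200 to 800 bp, and the summits of the replicates near the same bound gene were a median of 33 bp apart. They were within 50 bp of each other at 36 of the 55 genes.

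**Figure D2:**
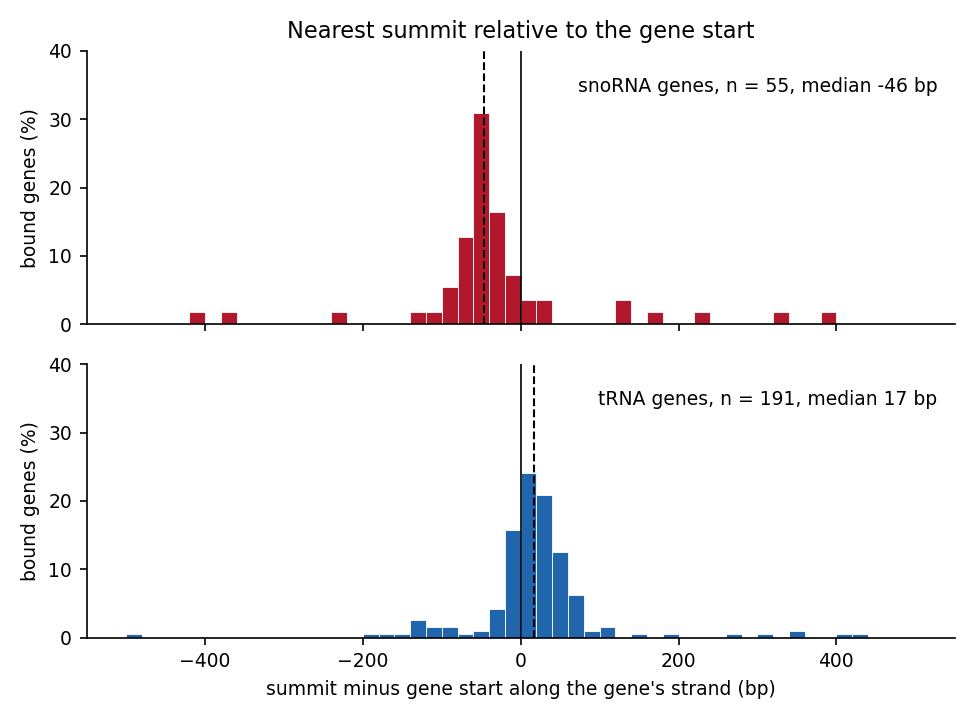
Position of the nearest optimal-list summit relative to the gene start, in bp along the strand of the gene (horizontal axis, bins of 20 bp), as a percentage of bound genes, for 55 bound snoRNA genes (top) and 191 bound tRNA genes (bottom). The solid line is the gene start and the dashed line the median, which lies at -46 bp for snoRNA genes and at 17 bp for tRNA genes.

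The peaks near snoRNA genes were among the stronger of the list. The signal is a value given to each peak by the caller of the authors, on a scale that is not stated. Its median was 80.6 at the 53 summits nearest to bound snoRNA starts. Of these summits, 43 were at or above the median of all 933 peaks, 61.7. In the longer ranked lists, which hold candidate peaks that did not pass the threshold, the highest signal within 500 bp of each start was read in each replicate. At 4 of the 55 bound genes (R166.7, M106.6, Y55F3BR.9 and C16A3.11) that peak lay more than 100 bp from the optimal-list summit in 1 of the replicates. In replicate 1 it had a median of 16.1 over all snoRNA genes, 41.9 over bound and 14.0 over unbound ones; in replicate 2 these medians were 13.2, 40.2 and 11.2. For all other nuclear genes the median was 0 in both replicates, which means that most had no candidate peak within 500 bp. For tRNA genes it was 22.1 in replicate 1 and 20.5 in replicate 2. In the optimal ranked list the medians were 27.1 for snoRNA genes and 41.0 for tRNA genes, 15.9 for protein-coding genes and 10.8 for all genes other than snoRNA genes. The bound genes were chosen on a list made from the same libraries, so their higher signal follows from the choice and is given as a description.

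ZK994.7 had the strongest peak of the bound snoRNA genes. This gene of 67 bp (chrV:8500579-8500645, plus strand) lies on the strand of its host in an intron of pxn-1, a gene of the peroxidasin family. Its peak had a signal of 183.0 in the optimal list at -26 bp, and the highest signals in the ranked lists were 100.3 in replicate 1 and 85.1 in replicate 2. Neither promoter word had an exact match in its window. The 90 bp before the start and the first 10 gene bases are printed here (chrV:8500489-8500588, plus strand, RefSeq sequence of WBcel235). There are no capitals because no word matched. Near its beginning the stretch holds tggcgaaa, which differs by 1 letter from the A box word.
ZK994.7: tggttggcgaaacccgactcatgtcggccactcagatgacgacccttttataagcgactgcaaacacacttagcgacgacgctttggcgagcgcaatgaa

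T03F7.8, at -67 bp on the strand opposite to its host cutl-18, a gene of the cuticlin-like family, followed with a signal of 139.7, and had 85.6 in replicate 1 and 59.1 in replicate 2. T06C12.16, an intergenic gene, had 134.9 at -46 bp, with 77.0 in replicate 1 and 63.2 in replicate 2. T27A3.9, which overlaps an exon on the opposite strand, had 133.4 at -25 bp, with 56.3 in replicate 1 and 85.6 in replicate 2. These 4 genes thus came from all 3 classes of place, and each was in the thresholded list of both replicates.

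W03C9.9, the box C/D gene shown above, had a signal of 126.9 at -71 bp, with 80.1 in replicate 1 and 47.4 in replicate 2. C51F7.3, a box C/D gene in an intron of frm-7, a gene of the FERM-domain family, shared a peak of 121.9 with C51F7.4, 90 bp before its own start and 19 bp after that of C51F7.4. That peak had 62.2 in replicate 1 and 61.9 in replicate 2. Y43F8C.22, the box H/ACA gene shown above, had 119.5 at -38 bp, with 62.4 in replicate 1 and 56.5 in replicate 2. All of these genes were in the thresholded list of both replicates; the values of separately called lists share no stated scale and are not compared with each other.

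Further strong peaks lay near snoRNA genes with no exact match of a promoter word. ZK265.10, an intergenic gene whose summit also lay in the promoter window of sre-23, had 105.0 at -56 bp, with 44.8 in replicate 1 and 59.6 in replicate 2. C27H6.5, in an intron of unc-41, a gene that acts at synapses, had 92.8 at -59 bp, with 48.5 in replicate 1 and 35.9 in replicate 2. Both passed the threshold in replicate 2 alone and not in replicate 1 alone. Upstream of C27H6.5 stood tggtgcag and, further on, gctcgaccc. They differ by 1 letter each from the A box word and the loose B box word. C10C6.8, a box H/ACA gene in an intron of catp-8, a gene of the cation-transporting ATPase family, had 92.7 at -64 bp, with 45.02 in replicate 1 and 42.3 in replicate 2, and passed in both.

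Some other strong peaks were also shared with a start of another kind or lay past the gene. F39B2.14, which overlaps an exon on its own strand, had 88.6 at -96 bp, with 58.4 in replicate 1 and 40.6 in replicate 2, and its summit also lay in the promoter windows of rps-26, a ribosomal protein gene, and tmem-107. B0334.12, on the strand opposite to its host twk-5, a potassium channel gene, had 91.5 at 129 bp, with 55.8 in replicate 1 and 44.2 in replicate 2, downstream of a gene that is itself 70 bp long. ZK484.9, on the strand opposite to its host haf-9, a gene of the ABC transporter family, held the loose B box. It had 96.1 at -41 bp, with 45.1 in replicate 1 and 52.1 in replicate 2. Its summit lay upstream of the start and in no protein-coding promoter window.

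Among the 25 bound genes of highest signal, 13 were intronic, 9 intergenic and 3 overlapped an exon, and 21 had the summit within 100 bp. Their signal ran from 87.0 to 183 in the optimal list, from 31.5 to 100 in replicate 1 and from 19.3 to 85.6 in replicate 2. Of these 25, 18 were in the thresholded list of each replicate. Of the other 30 bound genes 2 were, with signals of 14.0 to 86.8 at the nearest summit. The lowest was at C16A3.11, in an intron of the ribosomal protein gene rps-13, whose nearest peak at -105 bp had a signal of 14.0. Another optimal-list summit lay at 108 bp from its start, with 43.6 in the optimal ranked list. That was also the lowest among the highest ranked signals of the bound genes.

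The promoter words were more frequent at bound than at unbound snoRNA genes. They were searched from 250 bp before to 50 bp after the start of every gene. The B box GTTCGANNC stood on either strand in 17 of 55 bound (30.9%, exact interval 19.1% to 44.8%) and 10 of 291 unbound snoRNA genes (3.44%, 1.66% to 6.23%), and in 2.47% of all other nuclear genes. On the strand of the gene alone it was in 16 bound (29.1%) and 7 unbound (2.41%) snoRNA genes, against 1.06% of the others. The looser GTTCNANNC, which includes every match of the first, stood on either strand in 28 bound (50.9%) and 35 unbound snoRNA genes (12%), and in 9.94% of the others. The A box TGGCNNAG, which can share no more than its last letter with a B box match on the same strand, stood on either strand in 21 bound (38.2%) and 42 unbound snoRNA genes (14.4%), and in 6.97% of the others. On the strand of the gene it was in 34.5% of bound and 7.90% of unbound snoRNA genes and in 3.77% of the others. TATAAA, the core of a TATA box, did not follow this order: it was in 29.1% of bound and 24.1% of unbound snoRNA genes and in 37.5% of all other genes on either strand.

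In bound genes the words stood at similar places. There, 17 of the 19 A box matches on the strand of the gene began 80 to 45 bp before the start, with a median of -58 bp, and 24 of the 28 matches of the loose B box began 30 to 1 bp before it, with a median of -13.5 bp. In unbound genes 8 of 24 A box matches and 9 of 24 loose B box matches began in those ranges. The map of words and summits shows the A box word under or near many summits. The distance from the first base of the A box to the summit was taken with narrower search limits, which differed between gene types. At snoRNA genes they ran from 100 bp before the start through its first base. There the distance had a median of 13.5 bp (quartiles 1 and 19.25 bp, range -31 to 60 bp). This covers the 16 genes with the word among the 44 with a summit within 100 bp. In tRNA genes the A box lies inside the gene, and the limits ran from 1 bp before the start through the first 60 bases. It began at a median of 7 bp there. The distance had a median of 13 bp in 24 of 169 such genes (quartiles -5.75 and 29.75 bp, range -47 to 59 bp).

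**Figure D3:**
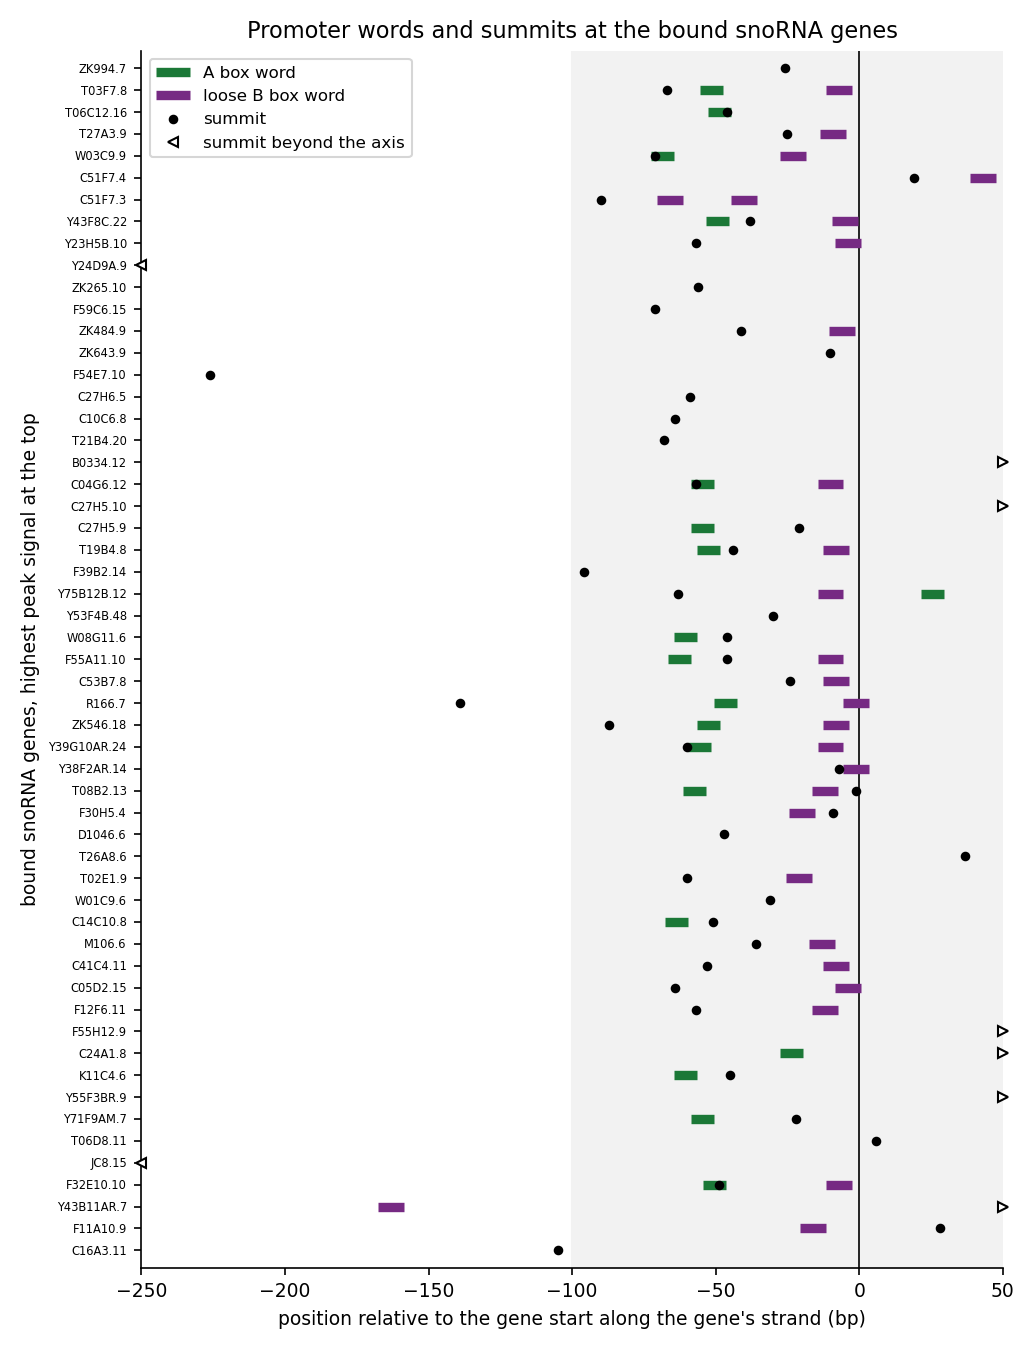
The 55 bound snoRNA genes, 1 per line from the highest peak signal at the top, against the position relative to the gene start in bp along the strand of the gene; green bars are matches of the A box word, purple bars matches of the loose B box word on that strand, dots the nearest summit, open triangles summits beyond the axis, and the grey band the 100 bp around the start. Green bars gather near -58 bp, purple bars near -13.5 bp, and 40 of 55 summits lie 1 to 100 bp upstream.

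When an A box word was followed by a loose B box word 30 to 70 bp further on the strand of the gene, the snoRNA gene was mostly bound. This pairing was chosen after its values were seen. It was found in 14 snoRNA genes, of which 11 were bound (78.6%, 49.2% to 95.3%), against 44 of the 332 without it (13.3%, 9.80% to 17.4%). From first base to first base the words were 43 to 45 bp apart in 13 of the 14, and 52 bp apart in F55A11.10. By place, 6 of 7 such intronic genes, 4 of 6 intergenic ones and the 1 that overlapped an exon were bound. Of the other 46538 nuclear genes with a full window, 32 had the pair (0.0688%), and 1 of these was bound (3.12%).

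The 11 bound genes with the pair had signals of 56.2 to 139.7 in the optimal list. R166.7, a box H/ACA gene in an intron of mnk-1, a gene of the MAP kinase-interacting kinase family, had 76.5 in the optimal list and was the only one of them with a summit more than 100 bp away, at -139 bp. In replicate 2 its highest ranked peak was 47.1 at -135 bp, but in replicate 1 it was another peak, 54.1 at 457 bp, and the gene was not bound in the thresholded list of replicate 1. F32E10.10, an intergenic gene, was the weakest, with 56.2 in the optimal list, 13.9 in replicate 1 and 35.6 in replicate 2, and was in the thresholded list of neither replicate. Of the 3 unbound genes with the pair, T24H7.6 had a candidate peak of 22.6 at -35 bp in the optimal ranked list, with 22.0 in replicate 1 and 9.17 in replicate 2. T10B9.11 had 13.7 in the optimal ranked list and no candidate peak in the ranked list of either replicate, and Y59E1B.14 on X had none in any of these 3 lists. The same letters thus stood upstream of genes with strong peaks and of a gene with none.

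The strict B box alone, on the strand of the gene, was in 23 snoRNA genes, of which 16 were bound (69.6%, 47.1% to 86.8%), against 39 of the 323 without it (12.1%, 8.73% to 16.1%), and its interval overlapped that of the pair. On the strand of the gene, either the A box or the loose B box was in the window of 76 snoRNA genes, of which 34 were bound (44.7%, 33.3% to 56.6%), against 21 of the 270 with neither (7.78%, 4.88% to 11.6%). Of the 44 genes with a summit within 100 bp, 31 had either word, and of the 11 bound genes with a summit farther away 3 had (27.3%). By place, with either word, 18 of 43 intronic (41.9%), 11 of 24 intergenic (45.8%) and 5 of 9 exon-overlapping snoRNA genes (55.6%) were bound. With neither, the shares were 12 of 126 intronic (9.52%), 7 of 100 intergenic (7.0%) and 2 of 44 exon-overlapping genes (4.55%). A match describes letters only, and no match says only that these letters are not in the window. ZK643.9, an intergenic gene read as box H/ACA by the stricter and as box C/D by the looser letters for the classes, had no match, with a summit at -10 bp and a signal of 93.5, and with 50.2 in replicate 1 and 42.8 in replicate 2. Its upstream stretch (chrIII:8937677-8937776, plus strand, no capitals because no word matched) is shown as an example of a strong peak at a gene with no exact match. It holds tggcgcaa and, further on, gttcaatat, which differ by 1 letter each from the A box word and the loose B box word.
ZK643.9: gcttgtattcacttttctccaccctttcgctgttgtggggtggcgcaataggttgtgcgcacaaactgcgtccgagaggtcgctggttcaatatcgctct

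The letters after the gene also differed. A run of 4 T within 30 bp after the annotated end was found at 40 of the 44 snoRNA genes with a summit within 100 bp (90.9%, 78.3% to 97.5%), at 45 of all 55 bound ones (81.8%) and at 138 of 291 unbound ones (47.4%, 41.6% to 53.3%). It was found at 46.1% of all other nuclear genes and at 98.9% of tRNA genes. Of the snoRNA genes with the run, 45 of 183 were bound (24.6%, 18.5% to 31.5%), against 10 of 163 without it (6.13%, 2.98% to 11.0%). With either promoter word and the run, 30 of 56 were bound (53.6%, 39.7% to 67.0%). With neither word and no run, 6 of 143 were bound (4.20%, 1.56% to 8.91%), and 1 of these had its summit within 100 bp.

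The 169 intronic snoRNA genes had 149 different hosts. Most hosts held 1 snoRNA gene, and 16 held 2 or more. The gene nol-56, which encodes a core protein of box C/D particles, held 4, and rpl-6, a ribosomal protein gene, and top-2, a DNA topoisomerase gene, held 3 each, and none of these 10 snoRNA genes was bound. The hosts of the strongest intronic peaks were pxn-1, cutl-18, frm-7 and Y43F8C.7, described above, and rpl-7A. In pdl-1, both snoRNA genes, C27H5.9 and C27H5.10, lay on the opposite strand and shared a summit. Its signal was 89.7 in the optimal list, with 48.7 in replicate 1 and 44.1 in replicate 2, and it was 21 bp before the start of C27H5.9 and 393 bp after that of C27H5.10.

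In hosts that encode ribosomal proteins no optimal-list summit lay within 100 bp of a snoRNA start. On the strand of the host, 4 of 19 snoRNA genes in 13 ribosomal protein genes were bound (21.1%, 6.05% to 45.6%), against 19 of 123 in other hosts (15.4%, 9.56% to 23.1%). None of these 4 summits was within 100 bp (0 of 19, an interval of 0% to 17.6%), against 16 of 123 in other hosts (13.0%, 7.62% to 20.3%). The intervals overlapped for both distances. Y24D9A.9, in rpl-7A, had a signal of 118.2 at -373 bp, with 46.1 in replicate 1 and 69.99 in replicate 2. F54E7.10, in rps-12, had 93.1 at -226 bp, with 48.4 in replicate 1 and 36.4 in replicate 2. Both summits lay in the promoter window of the host, from 1000 bp before to 300 bp after an annotated start. The others were Y43B11AR.7 in rps-4, with 55.3 at 324 bp, and C16A3.11 in rps-13, described above. Their nearest summits lay in the promoter windows of other genes, Y43B11AR.3 and nfx-1. The nearest summit of C16A3.11, at -105 bp, was just past the limit of 100 bp. Another optimal-list summit lay at 108 bp, with 43.6 in the optimal ranked list. The highest ranked peak of C16A3.11 was 33.8 at -31 bp in replicate 1 and 17.6 at 136 bp in replicate 2.

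Some summits near snoRNA genes were thus also near starts of protein-coding genes. Over all protein-coding genes, 2.33% had a summit in the promoter window. Of the 53 different summits nearest to bound snoRNA genes, 20 lay in such a window. The 2.33% is a share of genes and cannot be set against this count of summits. The share of all optimal-list summits that lay in such windows was not computed. Counted by gene these were 21 of the 55, 14 among the 44 with a summit within 100 bp and 7 among the 11 with a summit farther away. For 8 of the 30 bound intronic genes the window was that of the host, and for 4 of the 10 with a summit more than 100 bp away. Of the 149 hosts, 20 had a summit in their own promoter window. In 12 of these 20, which include cdc-48.1 and rpl-15, no snoRNA gene was bound. No bound snoRNA gene had a tRNA or snRNA start within 500 bp, although 2 snoRNA genes had a tRNA start and 2 a snRNA start that near. When each summit was given only to the nearest start of any gene, 46 snoRNA genes (13.3%) kept a summit.

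Most bound intronic genes lay close to the 3′ end of the intron. Among intronic snoRNA genes on the strand of the host, the 23 bound ones ended a median of 51 bp before the end of the intron (quartiles 36 and 66 bp, range 16 to 8328 bp), and the 16 of them with a summit within 100 bp a median of 50 bp before it. The 119 that were not bound ended a median of 137 bp before it (quartiles 50 and 796 bp, range 4 to 8968 bp). The bound gene farthest from the end was C24A1.8, in an intron of elf-1 of 17822 bp. The introns were a median of 284 bp long at the bound genes and 462 bp at the unbound ones. The ranges overlapped widely.

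The class of snoRNA could be read from the letters for some genes only. With TGATGA in the first 20 bases and CTGA in the last 15 bases taken as box C/D, and otherwise ACA in the last 8 bases as box H/ACA, 15 genes were box C/D, 91 box H/ACA and 240 had neither. The bound counts were 5 of 15 (33.3%, 11.8% to 61.6%), 19 of 91 (20.9%, 13.1% to 30.7%) and 31 of 240 (12.9%, 8.95% to 17.8%), with overlapping intervals. Looser letters, chosen after seeing the data, gave 35 box C/D genes with 14 bound (interval 23.9% to 57.9%) and 108 box H/ACA genes with 19 bound (interval 10.9% to 26.1%), and left 203 with neither, of which 22 were bound (10.8%, 6.92% to 15.9%). With these letters the intervals of box C/D genes and of genes with neither did not overlap. The median length was 95 bp over bound and 133 bp over unbound snoRNA genes.

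The replicates gave different numbers of bound genes from their own thresholded lists. Replicate 1 alone gave 29 bound snoRNA genes (8.38%, 5.68% to 11.8%), against 0.672% of all nuclear genes, and replicate 2 alone gave 37 (10.7%, 7.64% to 14.4%), against 0.855%. Of the 55 genes bound in the optimal list, 27 were bound in the list of replicate 1, 35 in that of replicate 2, 20 in both and 13 in neither. Of the 291 others, 2 were bound in the list of replicate 1 and another 2 in that of replicate 2. The conservative list of the series gave 54 bound genes (15.6%, 11.9% to 19.9%), 50 of them also bound in the optimal list, against 1.74% of all nuclear genes. Across the 55 bound genes the highest ranked signals of the replicates had a Spearman correlation of 0.503, and across the 175 unbound genes with a candidate peak in both replicates one of 0.297; these are descriptions over genes, which are not independent replicates and which share the libraries. The ranked list of replicate 1 had no candidate peak near 76 unbound snoRNA genes, and that of replicate 2 none near 86.

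**Figure D4:**
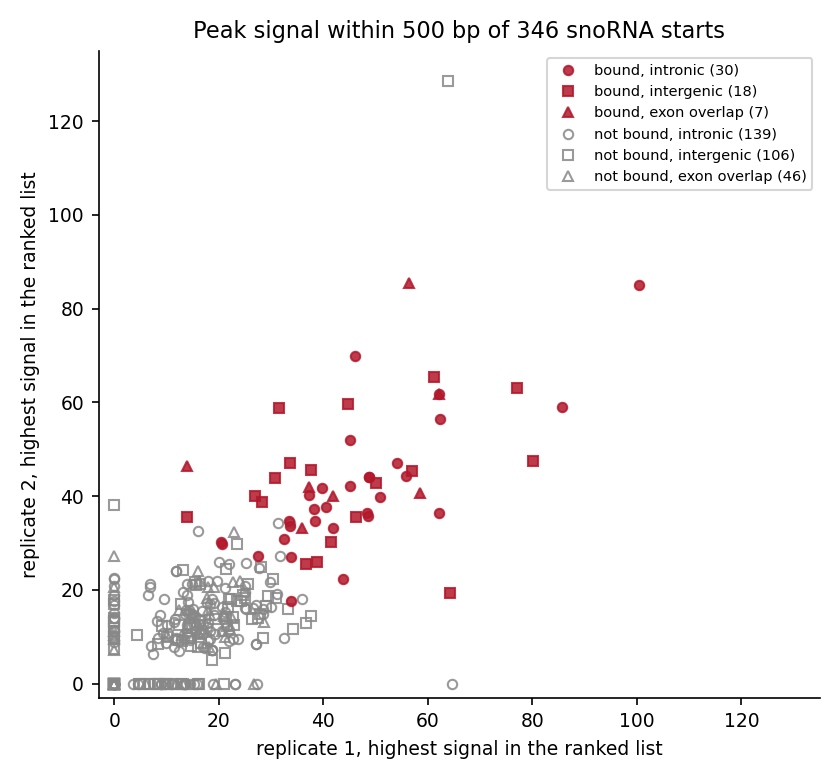
Highest peak signal within 500 bp of each of the 346 snoRNA starts in the ranked list of replicate 1 (horizontal axis) and of replicate 2 (vertical axis), in the units of the authors' caller, with 0 where the list had no peak; filled red symbols are the 55 bound genes, open grey symbols the 291 others, and shapes show the place of the gene. The bound genes lie at 13.9 or above in replicate 1 and at 17.6 or above in replicate 2, ZK994.7 is farthest to the right, and the grey square at the top is Y57G11C.1145.

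The limit of 500 bp was reached by few genes. The bound genes farthest from their summits were JC8.15 in tag-115 at -411 bp, C27H5.10 at 393 bp, Y24D9A.9 at -373 bp, Y43B11AR.7 at 324 bp and F54E7.10 at -226 bp, all intronic. The nearest unbound genes were C06A1.9 in cdc-48.1 at -522 bp, R166.10, an intergenic gene, at 546 bp, K11H12.13 in rpl-15 at -554 bp, F54E7.11 in rps-12 at -593 bp and Y49E10.36 in his-72 at -596 bp. The hosts cdc-48.1, rpl-15, rps-12 and his-72 each had a summit in their promoter window, and rps-12 thus held a snoRNA gene on each side of the limit.

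Among unbound snoRNA genes, Y57G11C.1145, an intergenic gene, had the highest signal of any snoRNA gene. It was 227.7 in the optimal ranked list at -407 bp, with 63.9 in replicate 1 and 128.5 in replicate 2. This peak was 1 of 120 in that ranked list whose score of at least 830 passed the threshold but which were not in the optimal list. It was the only one of them within 500 bp of a snoRNA start. F38E11.14, in an intron of cng-3, a gene of the cyclic nucleotide-gated channel family, had 64.6 in replicate 1 and no candidate peak in replicate 2 or in the optimal ranked list, but it was bound in the thresholded list of replicate 1 and in the conservative list, whose ranked list gave 110.7 at -39 bp. C46C2.8, an intergenic gene, had 38.1 in replicate 2, where it was bound in the thresholded list, and none in replicate 1 or in the optimal ranked list. T04A8.17, on the strand opposite to its host ppat-1, had 33.6 in replicate 1 and 34.3 in replicate 2, and 66.8 at -72 bp in the optimal ranked list. It was bound in the conservative list and in the thresholded list of replicate 2.

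Genes for the proteins that work with snoRNAs, or start RNA polymerase III, were not bound at their own promoters. Of 21 such genes, all found in the annotation, 0 had a summit in the promoter window, against 2.33% of all protein-coding genes. They were 4 genes of box C/D proteins, among them fib-1, the methyltransferase fibrillarin, and 4 of box H/ACA proteins, among them dkc-1, the pseudouridine synthase. The other 13 were listed for initiation by RNA polymerase III, among them brf-1, snpc-4 and tbp-1. Some of these 13, tbp-1 among them, also serve other polymerases. A list this short says little at so low a share.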

How the data were processed

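Peak lists from 2 libraries were used. The labels name the ce11 build, and which aligner and caller were run is not given in the sources used here. Per the labels, 1 input file was shared. The signal of a peak is the value of the authors' caller in the deposited lists, used only within a list. The score in the authors' deposited lists is a rescaled irreproducible discovery rate (IDR), which is low where the rank of a peak repeats between lists, and was at least 830 in the optimal list. It was checked against the −log10 IDR that the authors deposited in the ranked lists. What the pairs behind the optimal ranked list are is not stated. Lists carry no read totals, so depth is unknown.

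Genes came from Ensembl release 115 of WBcel235, without the mitochondrial genome; coordinates are 1-based. Each start was joined to its nearest summit, words were searched in RefSeq sequence, and exact or Newcombe 95% intervals were computed. Searching was tested on simulated data. No test between groups was made, since there is 1 group; the labels call the libraries biological replicates. Named genes were the 25 bound snoRNA genes of highest signal, the 5 unbound ones of highest signal in each replicate, the 5 at each side of the limit, hosts and listed partners, of which the text gives those a statement rests on. The snoRNA biotype as the subject, the words and the lists were chosen with earlier results of these data known; no measured value decides which genes belong. The work was done in Python 3.11.15 with pandas 2.3.3, numpy 2.4.6 and scipy 1.17.1, and plots with matplotlib 3.10.9.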

Additional observations from a re-analysis of the deposited data

How the results depend on the processing

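The bound share of snoRNA genes, 15.9%, moved beyond its interval with a window of 1000 bp (21.1%) and lay between 8.38% and 10.7% with the thresholded list of a single replicate. Under the other alternatives, which were windows of 250 and 100 bp, the conservative list, peaks at or above the median signal, any overlap with the peak, peak midpoints, nearest starts only, genes without tRNA or snRNA neighbours, whole gene bodies and, chosen after seeing the data, the left-out ranked peaks added, it ran from 12.7% to 17.9%. The difference between intronic and intergenic genes turned to -1.88 percentage points with a window of 100 bp and to -1.28 with peaks at or above the median signal, and was 0.822 to 8.29 under the rest, with every interval including 0; with 1 replicate it ran from 1.57 to 2.80. The median position of the summit stayed between -49 and -42 bp, and was -42 bp with either replicate alone. The median ranked signal, 27.1, was 20 with a window of 250 bp and 32.2 with 1000 bp, and lay between 13.2 and 16.1 in the lists of single replicates. The share of bound genes with the B box was 50.9% with the loose letters, and that of unbound genes 12%; the pair of words, chosen after seeing the data, gave 1.03% of unbound genes. Looser box letters gave 35 in place of 15 box C/D genes. The causes were not tested. No paired analysis was possible because there is 1 group. Low signals and single genes rest on 2 libraries of unknown depth, so an unbound gene is one where no peak passed, not one without the protein.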
